A study of Mus musculus with 8 samples.

Results

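The 10 genes studied here, all of the extraembryonic ectoderm and trophoblast, were followed in RNA sequencing of mouse epiblast at embryonic day 5.5: Elf5, Cdx2, Tfap2c, Tead4, Gata3, Rhox5, Rhox6, Rhox9, Ascl2 and Hand1. They were taken by symbol from a list of names and are 10 of the 52636 genes in the deposited count table. All 10 passed the filter on low counts that left 18321 genes for testing. The libraries were labelled as epiblast from which the extraembryonic layers had been cut away.

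The extraembryonic ectoderm is the trophoblast tissue that sits against the epiblast soon after implantation and holds the trophoblast stem cells of the placenta. Cdx2, Elf5, Tfap2c, Tead4 and Gata3 encode transcription factors that set up or keep the trophoblast fate, and FGF signalling through ERK from the neighbouring epiblast maintains the stem cell state. Ascl2 and Hand1 are known from the later ectoplacental cone and trophoblast giant cells, and the Rhox genes form an X-linked cluster of homeobox genes, several of which are expressed in trophoblast. Rhox5 is also known from other early tissues, the epiblast among them.

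The 8 libraries fell into 4 groups of 2. All embryos had the genotype Sox2Cre;CRAFR26, in which Sox2Cre drives recombination in the epiblast and an inducible form of the kinase cRAF allows ERK to be switched on with 4-hydroxytamoxifen (4OHT); the control embryos carried the same alleles, and each clone of the line, clone 4 or clone 8, is 1 targeted clone. Embryos of each clone were cultured in IVC2 medium with 250 nM 4OHT or with ethanol vehicle for 4 h. The titles of the vehicle libraries give 0 h while their treatment label gives 4 h of vehicle, so a part of each treatment comparison may be time in culture. For each library 10 epiblasts were pooled and 7 ng of their RNA was used. The labels do not say whether the replicates of a group came from separate litters, so p-values measure the spread between these pools.

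Total counts ran from 33.3 M to 38.0 M in vehicle and from 56.4 M to 72.5 M in 4OHT libraries (M, mega), without overlap. Levels are given as CPM, counts per M after TMM scaling of the library sizes, which allows for this difference in depth, and as CPM per kilobase of exon (RPKM) where genes are compared with each other. The epiblast markers Pou5f1 and Dnmt3b, at 269 ± 66.2 and 530 ± 48.4 RPKM (SD, n = 8), were high in every library. Of 8 targets of ERK, 8 had positive fitted changes after 4OHT over both clones, between 0.15 and 3.76 on the log2 scale, where 54.2% of all genes tested had a value above 0, and 0 of the 8 were called.

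Sequences around RefSeq transcription starts of members that moved alike are shown first, because several of these factors are known to act on each other's genes. RefSeq promoters of 300 bases (250 before to 50 after a transcription start, build GRCm38.p6) were at hand for Elf5, Cdx2, Rhox5, Ascl2 and Gata3, with a pair of starts for Elf5. The following 3 are printed 5′ to 3′ on the gene's strand, and capitals mark matches on either strand to 5 short motifs, none of which overlaps another match. The motif searched for the TFAP2 family was GCCNNNGGC. For the TEAD family the search used the letters CATTCC. For CDX factors, which are homeobox proteins, it used TTTATNG. For the ETS family, to which Elf5 belongs, it used CCGGAA. For GATA factors, the family of Gata3, it used AGATAA.
Elf5 promoter, chr2:103411848-103412147, plus strand: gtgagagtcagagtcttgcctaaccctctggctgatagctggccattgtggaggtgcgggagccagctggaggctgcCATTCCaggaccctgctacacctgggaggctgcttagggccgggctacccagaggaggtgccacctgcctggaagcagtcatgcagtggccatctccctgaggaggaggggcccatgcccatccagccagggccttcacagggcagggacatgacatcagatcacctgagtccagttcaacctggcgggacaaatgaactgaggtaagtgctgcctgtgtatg
Cdx2 promoter, chr5:147307200-147307499, minus strand: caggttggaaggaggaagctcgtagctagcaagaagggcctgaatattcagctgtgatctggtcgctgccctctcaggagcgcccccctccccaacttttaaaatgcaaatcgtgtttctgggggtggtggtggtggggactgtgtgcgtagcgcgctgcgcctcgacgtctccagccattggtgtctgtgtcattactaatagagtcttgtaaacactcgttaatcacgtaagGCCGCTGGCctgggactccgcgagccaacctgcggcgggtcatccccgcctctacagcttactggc
Gata3 promoter, chr2:9878551-9878850, minus strand: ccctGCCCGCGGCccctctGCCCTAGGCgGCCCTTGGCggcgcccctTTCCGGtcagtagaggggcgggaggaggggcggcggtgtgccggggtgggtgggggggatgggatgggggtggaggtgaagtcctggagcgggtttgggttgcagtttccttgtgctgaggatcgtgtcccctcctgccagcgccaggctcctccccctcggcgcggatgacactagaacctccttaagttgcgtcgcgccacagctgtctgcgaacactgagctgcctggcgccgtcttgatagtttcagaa

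The Gata3 window held 3 matches to the TFAP2 letters and 1 to the ETS letters, the Cdx2 window 1 TFAP2 match, and this Elf5 window 1 TEAD match. Of the windows not printed, that of Rhox5 held 1 ETS match, and those of Ascl2 and the other Elf5 start held 0 matches to the 5 motifs. The Rhox5 window, chrX:37754358-37754657, lay outside the annotated span of the gene counted here, chrX:37804842-37808876. The printed Gata3 and Elf5 windows lay within the annotated spans of their genes, chr2:9857078-9890034 and chr2:103411688-103450989, and not upstream of them. Among 32851 RefSeq promoters of the same length, 16.6% held the TFAP2 letters, 14.7% the TEAD letters, 10.9% the CDX letters, 14.9% the ETS letters and 11.2% the GATA letters. These matches describe the letters of the windows and are no evidence of binding.

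Rhox6 and Rhox9 are near copies, which bears on how far their counts can be told apart. Their coding sequences, each of 681 bases, were identical at 617 positions (90.6%) and shared an unbroken run of 161 bases. The first 180 coding bases are printed 5′ to 3′ with the 13 differing positions in capitals (GENCODE vM21 transcripts).
Rhox6: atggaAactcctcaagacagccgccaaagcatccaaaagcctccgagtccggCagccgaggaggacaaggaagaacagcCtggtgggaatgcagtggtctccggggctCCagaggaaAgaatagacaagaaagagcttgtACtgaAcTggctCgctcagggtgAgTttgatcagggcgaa
Rhox9: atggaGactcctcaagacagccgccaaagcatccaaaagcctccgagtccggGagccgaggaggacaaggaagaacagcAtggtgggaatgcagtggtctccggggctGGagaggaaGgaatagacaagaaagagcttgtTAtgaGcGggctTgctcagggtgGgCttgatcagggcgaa
Of all stretches of 50 bases, 159 occurred in transcripts of both genes, which was 16.5% of those of Rhox6 and 6.28% of those of Rhox9, while Rhox5 shared 0 with either. How the authors treated reads that match both genes is not given in the sources used here, so the values of Rhox6 and Rhox9 are uncertain to that extent.

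All 10 genes were detected in all 8 libraries, with between 85 counts, for Rhox9, and 45858 counts, for Rhox5. Per length, Rhox5 was by far the most abundant at 607 ± 157 RPKM (SD, n = 8), and its lowest library, at 408 RPKM, stood above the highest library of any other member, Hand1 at 51.8 RPKM. Next came Cdx2 at 26.3 ± 11.9, Tfap2c at 20.4 ± 10.6 and Hand1 at 19.1 ± 14.9 RPKM (SD, n = 8), which did not differ from each other beyond their spread. This order is over all 8 libraries and changed with the group: in vehicle clone 8 the mean of Rhox6, 11.6 RPKM, was above those of Cdx2 (10.5), Tfap2c (6.26) and Hand1 (5.20), and in vehicle clone 4 that of Hand1, 34.7 RPKM, was above that of Cdx2 (25.9). Rhox6 stood at 11.4 ± 2.99, Elf5 at 11.2 ± 5.44, Gata3 at 8.56 ± 3.77, Tead4 at 6.58 ± 2.79 and Ascl2 at 4.99 ± 3.33 RPKM, and each overlapped its neighbour in this order. Rhox9 was the lowest at 1.29 ± 0.263 RPKM, and its highest library, at 1.70 RPKM, lay below the lowest of Ascl2, at 2.87 RPKM. Thus RNA of trophoblast regulators was measured in every library of the dissected epiblast. In such bulk samples fewer cells of a type and less RNA per cell cannot be told apart.

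**Figure D1:**
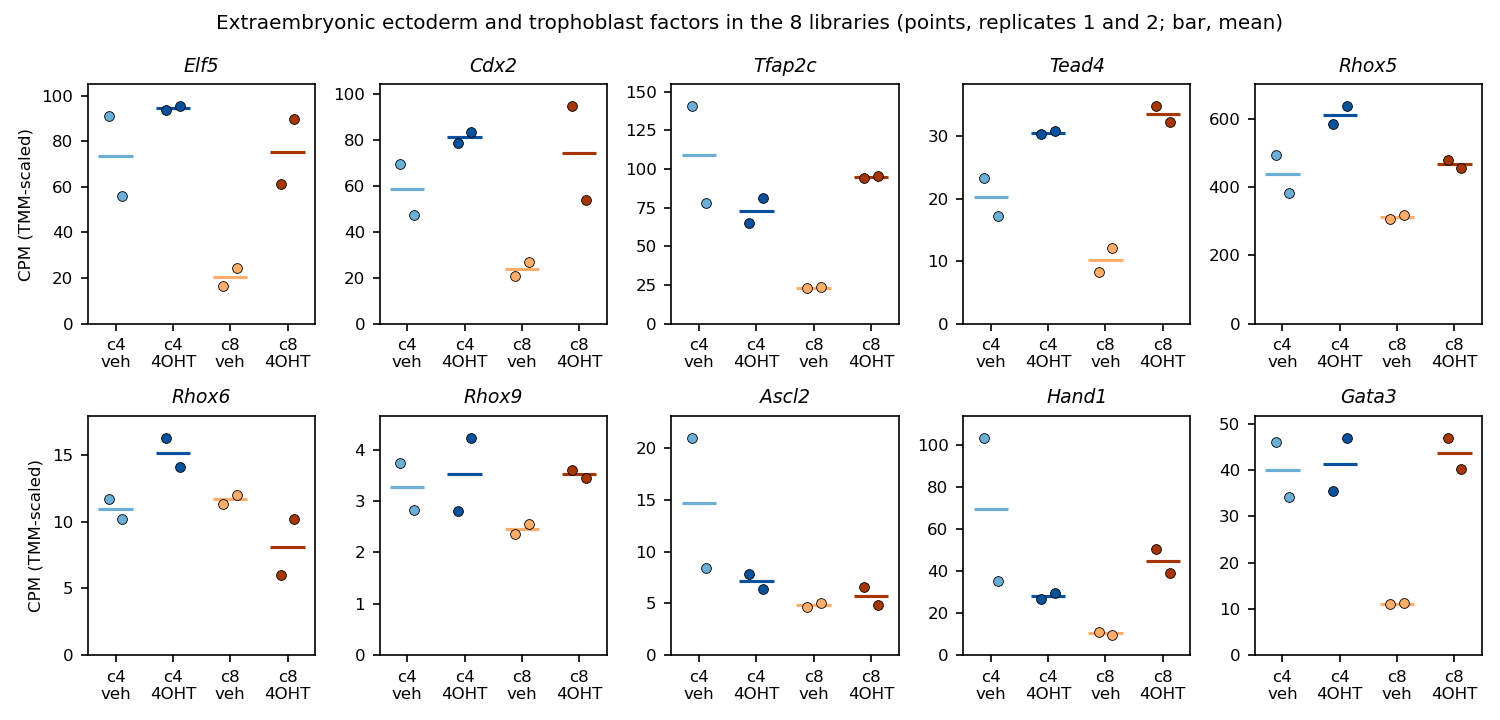
Level of each of the 10 genes in CPM (vertical axis, from 0, with its own scale per gene) in the 4 groups, where c4 and c8 are the clones, veh is vehicle, each point is 1 library and the bar is the group mean. The vehicle libraries of clone 8 are the lowest pair for Elf5, Cdx2, Tfap2c, Tead4, Rhox5, Rhox9, Hand1 and Gata3, and 1 vehicle library of clone 4 stands high for Hand1 and Ascl2.

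The levels of the stem cell regulators followed 1 pattern: they were low in both vehicle libraries of clone 8 and higher in the other 6 libraries. In each sentence of values the first is replicate 1 and the second replicate 2. Elf5 (ENSMUSG00000027186, chr2:103411688-103450989, plus strand), an ETS factor of trophoblast stem cells, stood at 91.2 and 55.8 CPM in vehicle clone 4, 93.7 and 95.3 CPM in 4OHT clone 4, 16.4 and 24.3 CPM in vehicle clone 8, and 61.1 and 89.8 CPM in 4OHT clone 8. Cdx2 (ENSMUSG00000029646, chr5:147300805-147307270, minus strand), a homeobox factor needed for the trophectoderm, stood at 69.8 and 47.4 CPM in vehicle clone 4, 78.9 and 83.7 CPM in 4OHT clone 4, 20.6 and 26.8 CPM in vehicle clone 8, and 94.8 and 54.0 CPM in 4OHT clone 8. For both genes the highest vehicle library of clone 8 was below the lowest of all other libraries.

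Tfap2c (ENSMUSG00000028640, chr2:172549593-172558622, plus strand), the AP-2 gamma factor, stood at 141 and 78.1 CPM in vehicle clone 4 and at 65.1 and 81.0 CPM in 4OHT clone 4. In clone 8 it stood at 22.7 and 23.4 CPM in vehicle and at 94.2 and 95.7 CPM after 4OHT. Its 4OHT libraries of clone 4 thus lay within or below the range of their vehicle libraries, whereas those of clone 8 lay above theirs. Tead4 (ENSMUSG00000030353, chr6:128224288-128300823, minus strand), the TEAD factor of the early trophectoderm, stood at 23.4 and 17.2 CPM in vehicle clone 4, 30.4 and 30.8 CPM in 4OHT clone 4, 8.28 and 12.2 CPM in vehicle clone 8, and 34.9 and 32.3 CPM in 4OHT clone 8. Tead4 was the single member whose 4 4OHT libraries were all above its 4 vehicle libraries. Gata3 (ENSMUSG00000015619, chr2:9857078-9890034, minus strand), a zinc finger factor of the trophoblast, stood at 46.0 and 34.2 CPM in vehicle clone 4, 35.6 and 47.1 CPM in 4OHT clone 4, 11.0 and 11.2 CPM in vehicle clone 8, and 47.0 and 40.3 CPM in 4OHT clone 8. The groups of clone 4 overlapped and those of clone 8 did not. Genes that overlap Tead4 or Gata3 in the annotation had at most 12 counts in any library.

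The Rhox genes differed from the others and among themselves. Rhox5 (ENSMUSG00000095180, chrX:37804842-37808876, plus strand) stood at 496 and 382 CPM in vehicle clone 4, 585 and 637 CPM in 4OHT clone 4, 307 and 318 CPM in vehicle clone 8, and 480 and 456 CPM in 4OHT clone 8. It had the same order of group means as Elf5, with a smaller ratio of the highest group to the lowest. Rhox6 (ENSMUSG00000006200, chrX:37826910-37829857, plus strand) stood at 11.7 and 10.2 CPM in vehicle clone 4, 16.3 and 14.1 CPM in 4OHT clone 4, 11.3 and 12 CPM in vehicle clone 8, and 5.97 and 10.2 CPM in 4OHT clone 8. Replicate 1 of 4OHT clone 8 was thus the lowest library for Rhox6, and replicate 2 stood level with replicate 2 of vehicle clone 4. Rhox9 (ENSMUSG00000068048, chrX:37899097-37901770, minus strand) stood at 3.75 and 2.83 CPM, 2.82 and 4.24 CPM, 2.37 and 2.56 CPM, and 3.61 and 3.45 CPM in the same groups, with vehicle clone 8 lowest.

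The factors of differentiating trophoblast, like Tfap2c, were highest in replicate 1 of vehicle clone 4. Hand1 (ENSMUSG00000037335, chr11:57828705-57832818, minus strand), a bHLH factor of giant cells, stood at 103 and 35.2 CPM in vehicle clone 4, 26.5 and 29.5 CPM in 4OHT clone 4, 11.1 and 9.61 CPM in vehicle clone 8, and 50.6 and 39.1 CPM in 4OHT clone 8. Ascl2 (ENSMUSG00000009248, chr7:142966829-142969264, minus strand), a bHLH factor of the ectoplacental cone, stood at 21.0 and 8.42 CPM in vehicle clone 4, 7.87 and 6.41 CPM in 4OHT clone 4, 4.65 and 5.0 CPM in vehicle clone 8, and 6.60 and 4.8 CPM in 4OHT clone 8. The next highest library was at 50.6 CPM for Hand1 and at 8.42 CPM for Ascl2.

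Within clone 8 most of the trophoblast genes were higher after 4OHT. Of the 10 members, 7 rose and 0 fell by edgeR's quasi-likelihood test, with calls made where the adjusted p was under 0.05. The same test called 16.6% of all genes in this comparison and 8% as higher. The members and the other gene lists were chosen with earlier results of these data known. Their excess over such shares, here and below, is therefore no independent test. The largest fold changes were those of Hand1 at 4.32-fold (log2 2.11, SE 0.41, adjusted p 0.0140), Tfap2c at 4.12-fold (log2 2.04, SE 0.25, adjusted p 0.00708) and Gata3 at 3.93-fold (log2 1.98, SE 0.21, adjusted p 0.00699). Elf5 rose 3.70-fold (log2 1.89, SE 0.28, adjusted p 0.00890), Tead4 3.28-fold (log2 1.72, SE 0.23, adjusted p 0.00783) and Cdx2 3.15-fold (log2 1.65, SE 0.28, adjusted p 0.0108). Rhox5 rose 1.50-fold (log2 0.58, SE 0.13, adjusted p 0.0204). Rhox9 (0.52), Ascl2 (0.24) and Rhox6 (-0.53) were not called, with adjusted p-values of 0.285, 0.710 and 0.198. Both 4OHT libraries were above both vehicle libraries for 8 members, against 31.7% of all genes, and both were below for Rhox6. The median log2 change of the 10 members was 1.68, beside 0.07 over all genes tested. The calls leaned on the spread pooled over the 4 groups and on 1 library: a fit of the 4 libraries of clone 8 alone called 0 genes (adjusted p 0.0533 to 0.0649 for these 7), and without vehicle clone 8 replicate 1 the fit called 0 genes (adjusted p 0.0749 to 0.145). Without vehicle clone 8 replicate 2 the calls of Rhox5 and Hand1 were lost, and without 4OHT clone 8 replicate 2 that of Rhox6, as lower, was gained. With library totals in place of TMM scaling the split over all genes moved from 1465 higher and 1576 lower to 2102 higher and 1074 lower, and the median of all genes to 0.19, while the members' median was 1.81 and the same 7 were called.

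**Figure D2:**
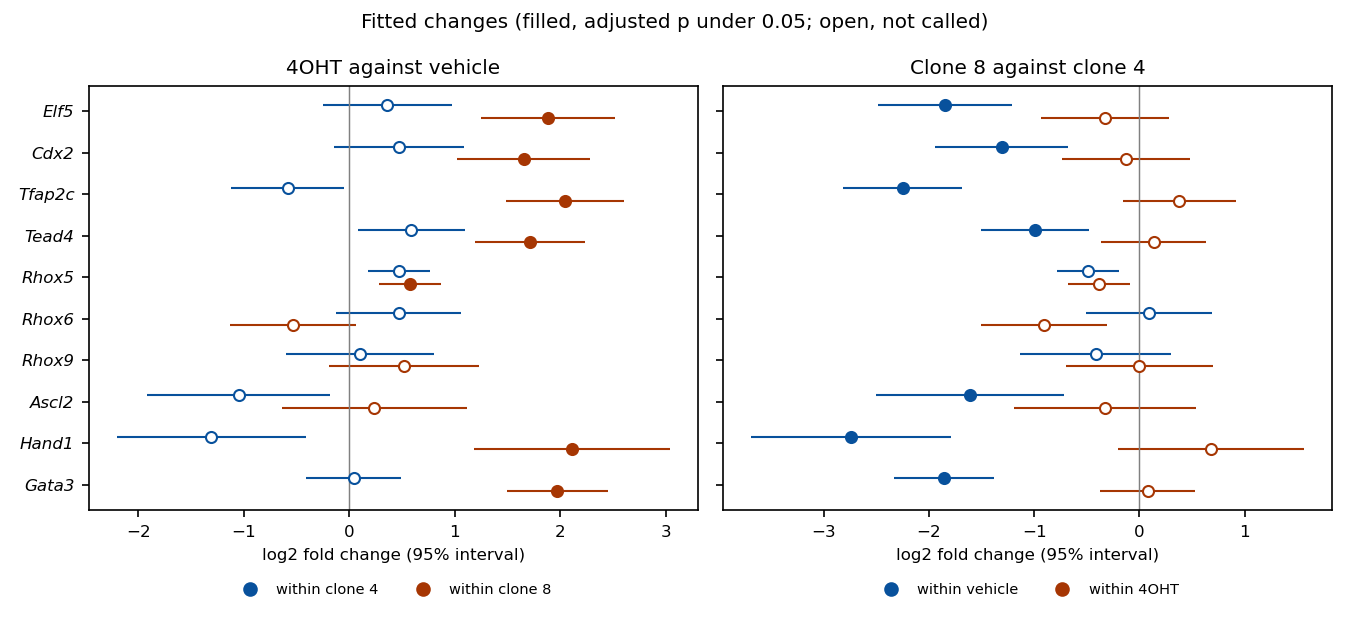
Fitted log2 fold change of each member (points) with its 95% interval (lines), for 4OHT against vehicle within each clone (left) and for clone 8 against clone 4 within each condition (right); filled points had an adjusted p under 0.05. The within-clone-8 values of Elf5, Cdx2, Tfap2c, Tead4, Hand1 and Gata3 lie between 1.65 and 2.11, and the clone differences of these genes lie between -2.74 and -0.99 in vehicle but between -0.33 and 0.68 in 4OHT.

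Within clone 4 no member was called, against 0.0382% of all genes. At an unadjusted p under 0.05 there were 5 members, against 9.9% of all genes: Tead4 at 0.59 (SE 0.22) and Rhox5 at 0.48 (SE 0.13) on the positive side, and Hand1 at -1.31 (SE 0.40), Ascl2 at -1.05 (SE 0.39) and Tfap2c at -0.58 (SE 0.24) on the negative side, with edgeR adjusted p-values of 0.227 to 0.467. The 4OHT libraries were both above the vehicle libraries for Elf5, Cdx2, Tead4, Rhox5 and Rhox6 (background 23.7%) and both below for Ascl2 and Hand1 (background 23.8%). The members' median was 0.23, beside -0.00465 over all genes. Without vehicle clone 4 replicate 1 the log2 values of Hand1, Ascl2 and Tfap2c shrank to -0.33, -0.24 and -0.095. The fit without the expression filter called 4 members and DESeq2 called 1, Hand1.

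The responses of the clones differed for 3 members. In edgeR's test of the difference (clone 8 minus clone 4), Hand1 stood at 3.42 (SE 0.57, adjusted p 0.0303), Tfap2c at 2.63 (SE 0.34, adjusted p 0.0196) and Gata3 at 1.93 (SE 0.29, adjusted p 0.0256) on the log2 scale. The test called 2.83% of all genes, 1.08% as higher in clone 8. The same quantity is the clone difference in 4OHT minus that in vehicle. In the order above, these differences were 0.68, 0.38 and 0.080 in 4OHT and -2.74, -2.25 and -1.85 in vehicle. The larger part thus lay in the vehicle libraries. Elf5 at 1.53 (adjusted p 0.0701), Tead4 at 1.13 (0.0894), Cdx2 at 1.18 (0.124), Ascl2 at 1.29 (0.206) and Rhox6 at -1.0 (0.162) were not called, nor were Rhox9 at 0.42 and Rhox5 at 0.10. The 95% interval of Rhox5, -0.31 to 0.52, was the narrowest. All 3 calls were lost without vehicle clone 8 replicate 1 and without either 4OHT library of clone 4. The call of Gata3 was also lost without either vehicle library of clone 4, and that of Hand1 without vehicle clone 8 replicate 2. With library totals the split over all genes moved from 198 higher and 321 lower to 214 higher and 197 lower, with the same 3 members called.

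The clones differed already in vehicle. There 7 members were lower in clone 8 than in clone 4, against 4.31% of all genes lower and 8.37% called in either direction. Hand1 was 6.68-fold lower (log2 -2.74, SE 0.42, adjusted p 0.0177), Tfap2c 4.75-fold (log2 -2.25, SE 0.25, adjusted p 0.00860) and Gata3 3.61-fold (log2 -1.85, SE 0.21, adjusted p 0.00860). Elf5 was 3.61-fold (log2 -1.85, SE 0.28, adjusted p 0.0174), Ascl2 3.05-fold (log2 -1.61, SE 0.40, adjusted p 0.0419), Cdx2 2.48-fold (log2 -1.31, SE 0.28, adjusted p 0.0293) and Tead4 1.99-fold lower (log2 -0.99, SE 0.23, adjusted p 0.0353). Rhox5 at -0.49 (adjusted p 0.0508), Rhox9 at -0.42 (0.474) and Rhox6 at 0.09 (0.878) were not called. Both vehicle libraries of clone 8 were below both of clone 4 for 9 members, Rhox6 being the exception (background 29.2%). The median was -1.46, beside 0.00428 over all genes. No member stayed called in edgeR's test without vehicle clone 4 replicate 1 or without vehicle clone 8 replicate 1 (adjusted p 0.0825 to 0.260 and 0.149 to 0.293), and 4 stayed without either 4OHT library of clone 4. Without vehicle clone 4 replicate 1, Hand1 stood at -1.74 and Ascl2 at -0.78. Since these comparisons share the vehicle libraries of clone 8 with the treatment comparison of that clone, their values are not independent of it.

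Between the clones after 4OHT, 0 members were called by edgeR's test, against 0.202% of all genes. At an unadjusted p under 0.05 there were 2 (background 18%), Rhox6 at -0.91 (SE 0.26) and Rhox5 at -0.39 (SE 0.13). The 95% intervals of the differences were -0.93 to 0.28 for Elf5, -0.74 to 0.48 for Cdx2, -0.37 to 0.63 for Tead4, -0.16 to 0.91 for Tfap2c, -0.37 to 0.53 for Gata3 and -0.21 to 1.57 for Hand1. The test of this contrast against the same contrast in vehicle is the difference of responses above, which was called for Tfap2c, Hand1 and Gata3. DESeq2 called 1 member here, Rhox6, and the fit without the expression filter 2, Rhox6 and Hand1.

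Over both clones 0 members were called for 4OHT against vehicle, where the additive fit called 0.00546% of all genes. The log2 values were 1.15 for Tead4 (SE 0.25, edgeR adjusted p 0.119), 1.12 for Elf5 (SE 0.32, 0.164), 1.06 for Cdx2 (SE 0.28, 0.141), 1.0 for Gata3 (SE 0.36, 0.219) and 0.53 for Rhox5 (SE 0.10, 0.115). These 5 had an unadjusted p under 0.05 (background 16.9%). Tead4 alone had all 4OHT libraries above all vehicle libraries (background 3.42%). The mean of the responses of the clones in the 4-group fit, chosen after the data were seen, called 6 members, as did the fit without the filter, and DESeq2 called 5.

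For the members, replicates differed most in vehicle clone 4, where all 10 were lower in replicate 2 than in replicate 1, as were 49.8% of all genes. The median size of that difference was 0.50 on the log2 scale for the members and 0.23 for all genes. In the other groups the members' medians were 0.11 (vehicle clone 8), 0.18 (4OHT clone 4) and 0.30 (4OHT clone 8), beside 0.30, 0.24 and 0.34 over all genes. Over all genes the replicates were thus least alike in 4OHT clone 8 (Pearson r of log2 CPM 0.955) and most alike in vehicle clone 4 (0.981). Hand1 was 2.93-fold and Ascl2 2.49-fold higher in replicate 1 of vehicle clone 4, larger than 95.5% and 93.6% of the differences of all genes.

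Some genes of later trophoblast were also highest in replicate 1 of vehicle clone 4, and others of that list were not. Prl3d1, a prolactin-family hormone of giant cells, had 1894 and 66 counts in vehicle clone 4, 18 and 24 in 4OHT clone 4, 5 and 0 in vehicle clone 8, and 439 and 526 in 4OHT clone 8. Plac1 stood at 43.0 and 2.5 CPM in vehicle clone 4 and between 2.56 and 8.97 CPM in the other groups. Krt7, a keratin of trophoblast, stood at 28.3 and 6.58 CPM in vehicle clone 4 and between 5.04 and 8.25 CPM elsewhere. In that library Flt1 was at its lowest, 5.72 CPM, against up to 28.7 CPM elsewhere. Peg10 stood there at 140 CPM, against up to 229 CPM, Phlda2 at 168 CPM, against up to 251 CPM, and Gcm1 at 0.669 CPM, against up to 0.806 CPM. Hba-a1, a globin gene of blood, had 135 and 0 counts in vehicle clone 4 and at most 27 elsewhere. Tpbpa, of the spongiotrophoblast lineage, had at most 10 counts in any library and was not tested. Of the 9 tested genes of the later trophoblast list, 3 rose within clone 8 in edgeR's test, against 8% of all genes. These were Peg10 at 1.44 (SE 0.27, adjusted p 0.0130), Phlda2 at 1.43 (SE 0.39, adjusted p 0.0387) and Prl3d1 (adjusted p 0.0240, no fold given, since its vehicle counts were 5 and 0). The part of such cells in the values of Hand1 and Ascl2 was not tested.

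**Figure D3:**
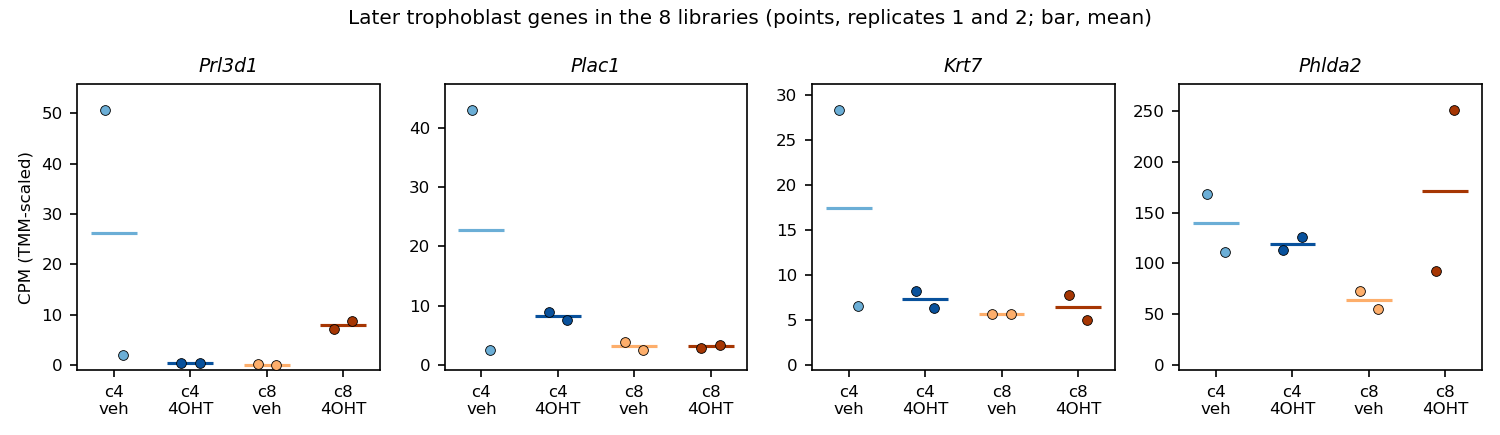
Level in CPM (vertical axis, from 0, own scale per gene) of Prl3d1, Plac1, Krt7 and Phlda2 in the 4 groups; points are libraries and bars group means. Replicate 1 of vehicle clone 4 is the highest point for Prl3d1, Plac1 and Krt7, with 50.7, 43.0 and 28.3 CPM.

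Other genes of the extraembryonic ectoderm were called in the same contrasts. Of 14 tested, 8 rose and 1 fell within clone 8, against 8% and 8.6% of all genes. Within clone 4 and over both clones 0 were called, against 0.0382% and 0.00546% of all genes. In edgeR's test within clone 8, Wnt7b changed by 2.47 (SE 0.30, adjusted p 0.00699), Bmp8b by 2.05 (SE 0.19, adjusted p 0.00670) and Esrrb, an orphan nuclear receptor of trophoblast stem cells, by 2.04 (SE 0.14, adjusted p 0.00215). Bmp4, the ligand from this tissue that acts on the epiblast, rose by 1.62, Ets2 by 1.25, the FGF receptor Fgfr2 by 1.22 and Gjb5 by 1.16. Furin, a protease that processes Nodal, fell by 1.15 (adjusted p 0.0129). Eomes, a T-box factor of trophoblast stem cells that is also expressed in endoderm, stood at 0.25 (SE 0.19, adjusted p 0.405). Its levels ran from 26.9 to 54.7 CPM, and it was not low in vehicle clone 8, at 43.9 and 41.5 CPM. In vehicle 7 of the 14 were lower in clone 8 than in clone 4 (4.31% of all genes) and Furin was higher (4.06%). In 4OHT 0 were called (0.202% of all genes). The list's medians were 1.19 within clone 8 and -0.89 between the clones in vehicle.

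Most paralogs of the members were low. Tead2 was the abundant TEAD gene at 64.9 ± 5.29 RPKM (SD, n = 8), compared with 6.58 RPKM for Tead4. Tead2 ranged from 282 to 354 CPM. Elf3 stood at 14.8 ± 3.90 RPKM (SD, n = 8), compared with 11.2 RPKM for Elf5. Of 9 tested paralogs 1 was called within clone 8, where 16.6% of all genes were called, so this count does not set the paralogs apart. It was Tfap2a, at 1.32 (SE 0.32, edgeR adjusted p 0.0264). Its levels were 1.98 and 1.81 CPM in vehicle and 5.15 and 4.29 CPM in 4OHT clone 8. Hand2, Tfap2b and Cdx4 stayed below 0.2 CPM in every library.

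Markers of visceral endoderm, another extraembryonic layer of this stage, were compared in the same libraries. The summed level of 15 markers was 926 and 580 CPM in vehicle clone 4, 2622 and 2987 CPM in 4OHT clone 4, 1796 and 1878 CPM in vehicle clone 8, and 534 and 1338 CPM in 4OHT clone 8. None of the 15 was at 0 in any library. The summed level of the 14 other extraembryonic ectoderm genes was 657 and 547, 630 and 642, 263 and 297, and 764 and 616 CPM in the same groups. That of 7 epiblast markers was lower after 4OHT, at 3605 to 3989 CPM, than in vehicle, at 4248 to 4667 CPM. Dnmt3b alone held 2409 to 3188 CPM of this sum. By gene, the edgeR log2 changes over both clones were -1.11 for Nanog, -0.54 for Pou5f1 and -0.33 for Otx2. They were -0.22 for Pou3f1, -0.15 for Dnmt3b, -0.045 for Fgf5 and -0.0083 for Tdgf1. No epiblast marker was called in that fit, which called 0.00546% of all genes. Within clone 8, where 8.6% of all genes were called as lower, 4 of the 15 endoderm markers fell (Ttr, Hnf4a, Apoa1 and Amn) and 0 rose. The other 11 were not called. Their log2 values were near 0 for Gata4 (0.05), Sox17 (-0.05), Dab2 (-0.16) and Lrp2 (-0.17). The rest were all negative, between -1.23 (Gata6) and -0.32 (Cer1). In vehicle 5 of the 15 markers were higher in clone 8 than in clone 4, against 4.06% of all genes. Within clone 4 all 15 had higher levels in both 4OHT libraries, against 23.7% of all genes. Their median there was 1.85 and 0 were called, in a contrast that called 0.0382% of all genes. The part of dissection, or of cells of other layers, in the members' values was not tested.

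**Figure D4:**
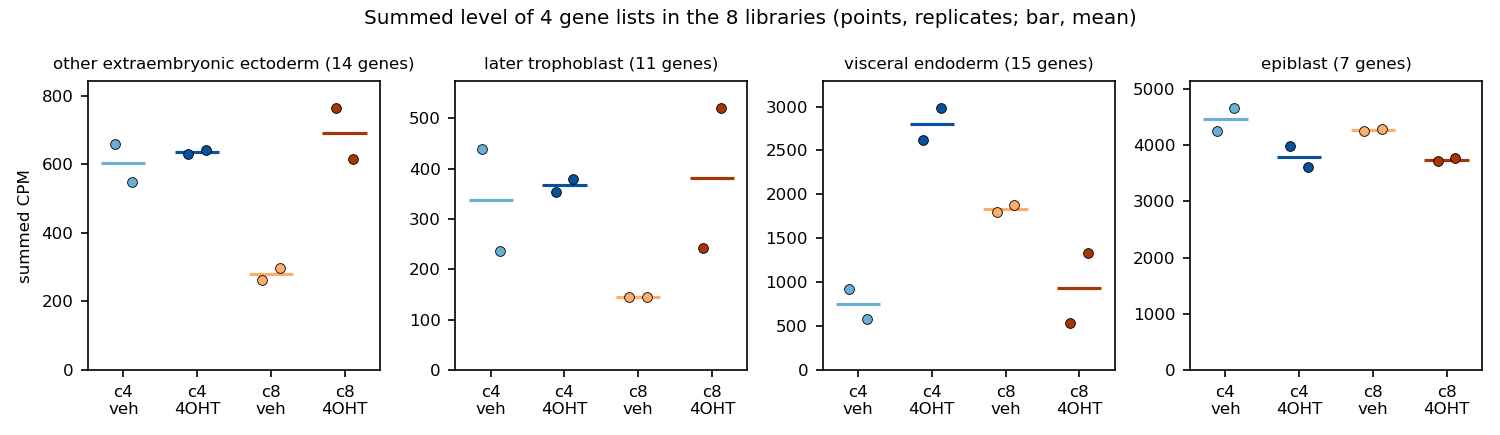
Summed CPM (vertical axis, from 0, own scale per list) of 4 gene lists in the 4 groups; points are libraries and bars group means. Other extraembryonic ectoderm genes are lowest in vehicle clone 8, at 263 and 297 CPM, while visceral endoderm markers are highest in 4OHT clone 4, at 2622 and 2987 CPM. The epiblast sum lies between 4248 and 4667 CPM in vehicle and between 3605 and 3989 CPM in 4OHT libraries.

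The members' profiles over the 8 libraries were alike for most. Pearson's r with the mean of the members' standardised log2 CPM, which includes the gene itself, was 0.97 for Elf5, 0.96 for Gata3, 0.94 for Tfap2c, 0.93 for Cdx2, 0.91 for Rhox5, 0.89 for Tead4, 0.86 for Hand1, 0.85 for Rhox9, 0.62 for Ascl2 and 0.04 for Rhox6 (8 libraries, which share the low vehicle pair of clone 8). That mean was -1.33 and -1.08 in vehicle clone 8 and at least -0.09 elsewhere. Among 9152 other genes above the median level, the profile was most like those of Trap1a (r = 0.99), Nub1, Stk38, Fto, Myd88, Zfp42, Mtf1 and Fkbp9 (r = 0.97). Trap1a, an X-linked gene, stood at 64.8 and 65.8 CPM in vehicle clone 8 and between 87.9 and 110.5 CPM in the other libraries. Zfp42, the pluripotency marker Rex1 that is also known in trophoblast, stood at 24.6 and 34.6 CPM in vehicle clone 8 and between 60.0 and 84.4 CPM elsewhere. The genes most like Elf5 alone were Arhgap11a, Mtf1, Lnpk, Gcnt1, Tmod3, Usp9x, Rbm18 and Slc25a32.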

How the data were processed

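RNA was measured in 8 libraries. The values are raw read counts per Ensembl gene, in a single table as deposited. STAR 2.5.3a, bcl2fastq 2.19.1 and build mm10 are named per the submitters' processing notes; the counting program, annotation release and use of strand are not given in the sources used here. Symbols matched 52403 of 52636 rows, and unmatched rows held at most 0.0325% of a library's counts.

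Counts were tested with edgeR 4.0.16 (R 4.3.3): filterByExpr over the 4 groups with a minimum count of 10 left 18321 genes, TMM scaling, quasi-likelihood tests, and Benjamini-Hochberg adjustment over all tested genes, with calls at 0.05. Both clones together were fitted with clone and treatment as additive terms, and the other 5 comparisons with 4 groups sharing 1 spread. A standard error is the log2 change divided by the square root of F. RPKM values used exon lengths of GENCODE vM21 (GRCm38, the same build as mm10). Profiles used log2 CPM with a prior count of 2. The procedure was tested on simulated data.

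All 10 members were named, with other lineage genes from set lists by counts, and the 8 genes of most similar profile. Some genes of the lists are not reported here by name. Members and lists were chosen with earlier results of these data known. Alternatives tried were library totals, RLE size factors, no filter, DESeq2 1.42.0, a replicate block and leaving out each library; the mean of the within-clone contrasts and fits of 1 clone alone were added after seeing the data. Same-numbered replicates did not deviate together (correlations -0.0298 to 0.0947), so the numbers were not used as pairs.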

Additional observations from a re-analysis of the deposited data

Results flagged for a closer look

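Elf5 in 4OHT clone 8 replicate 1, at 61.1 CPM, lay far below the other 3 4OHT libraries, which stood at 89.8 to 95.3 CPM; the gap was 0.838 of the group's range, over Dixon's limit for 4 samples. Such gaps were looked for in 20 groups, 1 was found, and chance would give about 1.

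By edgeR's test of the difference (clone 8 minus clone 4), the response to 4OHT differed for Tfap2c, Hand1 and Gata3. The log2 differences were 2.63, 3.42 and 1.93. In that order, the fitted responses were 2.04, 2.11 and 1.98 within clone 8 and -0.58, -1.31 and 0.04 within clone 4. The clone differences of the same genes were 0.38, 0.68 and 0.080 in 4OHT and -2.25, -2.74 and -1.85 in vehicle.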

How the results depend on the processing

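Every called member kept its direction under every alternative. Calls among the members were the same with RLE size factors and library totals. With library totals 19 genes were called between the clones in 4OHT, in place of 37 (11 higher and 8 lower, against 11 and 26), and the median log2 change of all genes moved from 0.04 to 0.12 over both clones, from 0.05 to 0.16 in the difference of responses and from 0.02 to 0.12 between the clones in 4OHT. No filter called 6 members and 1337 genes over both clones, 4 and 728 within clone 4, 7 and 2114 in the difference of responses, 2901 genes between the clones in vehicle and 2 members and 1414 genes in 4OHT. DESeq2 called 5 and 1053, 1 and 468, 6 and 1864, 3064, and 1 and 1015 in the same order. The main counts were 0 and 1, 0 and 7, 3 and 519, 1534, and 0 and 37; within clone 8 they were 7 and 3041. The causes were not tested. With the replicate block, 0 genes were called over both clones and 0 within clone 4 (unadjusted p under 0.05: 2338 and 1814; DESeq2: 1053 and 468), 18 between the clones in 4OHT, and 4 members in the difference of responses, Elf5 being gained; it changed no other member's call. The mean of the within-clone contrasts called 6 members and 1063 genes; clone 4 alone gave 220 genes and clone 8 alone 0 members and 0 genes, with fewer libraries in the fit.

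Leaving out 1 library at a time, where a lone library is assumed to vary like the other groups, gave 0 to 8 members and 0 to 3218 genes within clone 8, 0 to 5 and 0 to 1205 in the difference of responses, 0 to 8 and 0 to 2491 between the clones in vehicle, 0 to 1 and 0 to 672 in 4OHT, 0 members and 0 to 259 genes within clone 4, and 0 members and 0 to 1 genes over both clones. Log2 values that were not called changed sign: Rhox9 between the clones in 4OHT (-0.0059 with RLE size factors, -0.0062 without the filter, -0.0066 with DESeq2, -0.26 to 0.33 leaving out libraries), Rhox6 over both clones (0.039 with library totals, -0.19 to 0.21), and, leaving out libraries, over both clones Ascl2 (-0.62 to 0.027) and Hand1 (-0.24 to 1.04), within clone 4 Gata3 (-0.17 to 0.27) and Rhox9 (-0.22 to 0.37), within clone 8 Ascl2 (-0.0066 to 0.45), in 4OHT Gata3 (-0.11 to 0.30) and Cdx2 (-0.59 to 0.22), and in the difference of responses Rhox5 (-0.12 to 0.25). With 2 libraries per group, at 33.3 M to 72.5 M counts, the spread between pools limits precision more than counting.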
